A study of Homo sapiens with 4 samples.

Results

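Integrins and laminins are the receptors and ligands of cell attachment to the basement membrane. The genes described here are the protein-coding genes of the deposited expression table whose symbols are those of integrin α and β chains or of laminin α, β and γ chains. The rule found 32 of the 16692 listed genes, namely 15 integrin α chains, 5 integrin β chains, 5 laminin α, 4 laminin β and 2 laminin γ chains, and ITGBL1. ITGBL1 matches by its symbol alone: it encodes a secreted protein related to integrin β chains, not a receptor chain, and it was kept out of the integrin totals. Other chains, among them ITGA4, ITGB3, ITGB6 and LAMC3, were not found by these symbols among the listed protein-coding genes, so their levels are unknown here.

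An integrin is a membrane receptor made of 1 α and 1 β chain, and a laminin is a secreted, cross-shaped trimer of 1 α, 1 β and 1 γ chain, named by the numbers of its chains. Both are assembled in the endoplasmic reticulum before they reach the surface or the matrix. Laminin-332, which holds LAMA3 and LAMB3, is the classic laminin of epithelia, where it binds the integrins α3β1 and α6β4. LAMA4 is the α chain of laminin-411, and LAMA5 that of laminin-511.

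The cells were SNU-668, an established human gastric cancer line, described in the series text as resistant to erastin, a ferroptosis inducer, while the library names carry RLS3. One set of cells was labelled ALKBH3 knockdown, by an shRNA against this nucleic acid demethylase, and the other carried a control shRNA and the genotype label WT. Ribosome footprints and RNA were each counted in 1 library per condition, with no replicates, so every comparison below is between libraries and every interval is a 95% counting interval. Counted reads are not independent molecules without molecular identifiers, so the intervals cover counting error only. The footprint libraries held 3795680 (control) and 3742513 (knockdown-labelled) counts, the RNA libraries 554075 and 689375. The knockdown label was not borne out, since ALKBH3 had 14 footprints in the control library and 22 in the knockdown-labelled library, and 0 RNA counts in both.

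The labelled cell type was compared with marker genes. Of 8 epithelial markers, 5 had fewer than 20 footprints over both libraries. EPCAM, the epithelial adhesion molecule, had 0 and 2, the keratin KRT19 had 4 and 3, and KRT8 had 17 and 15, while its partner KRT18 had 462 and 538. Among 10 markers of mesenchymal cells, COL1A2, a collagen I chain, had 24916 and 21822 footprints and VIM, vimentin, 23326 and 16521. The 10 mesenchymal markers together went from 13567 to 10546 footprints per 1000000, and the 8 epithelial ones from 139.4 to 157.4. COL1A2 and VIM held 48242 of the 50312 mesenchymal footprints in the control, and the other 8 markers went from 558.2 to 536.5 per 1000000. Among those 8, COL1A1 was lower at a log2 ratio, knockdown-labelled over control, of -0.64 (-0.78 to -0.50), while THY1 was higher at 0.38 (0.24 to 0.52) and PDGFRB at 0.47 (0.21 to 0.74). Of the 10, 2 had fewer than 20 footprints, LUM with 2 and 1 and COL3A1 with 0 in both libraries. In RNA the order differed for KRT8, which had 208 counts in the control library, against 47 for VIM and 19 for COL1A2. It was again above VIM (104) and COL1A2 (37) in the knockdown-labelled library. Of the other epithelial markers, CLDN4 had 32 and 57 RNA counts and KRT18 had 13 and 36. EPCAM, KRT19 and KRT7 had 0 RNA counts in both libraries. The 9 leukocyte markers went from 334.1 to 236.8 per 1000000, nearly all of it from LCP1 (947 and 696 footprints) and CORO1A (243 and 151), while the defining markers PTPRC and LYZ were at 0 in both libraries. Keratin and vimentin counts can share reads with related copies, and the part of cell composition in the results below was not tested.

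The laminin chains with the most footprints were LAMC1, LAMB1, LAMB3 and LAMA4. LAMC1, the common γ chain, had 12475 footprints in the control library and 11267 in the knockdown-labelled library, the most of all 32 genes. LAMB1, the common β chain, had 5756 and 6519, and LAMB3, the β chain of laminin-332, had 4340 and 4520. LAMA4 had 2353 and 2877. These 4 chains far outnumbered the other laminins in both libraries. LAMA5, the α chain of most adult epithelial basement membranes, had 207 and 217 footprints, and LAMB2 had 88 and 72. LAMA1, an α chain of embryonic basement membranes, had 25 and 26, while LAMA2, the main α chain of muscle, had 1 and 5, and LAMB4 had 3 and 1. Within the laminin α footprints LAMA4 held 90.4% in the control (interval 89.2% to 91.5%, exact binomial) and 91.5% in the knockdown-labelled library (90.5% to 92.5%).

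LAMA3 and LAMB3, the α and β chains of laminin-332, had very unequal footprint levels. LAMB3 stood at 184.1 RPKM (reads scaled by the authors for gene length and library depth, the scale used for all levels between genes) in the control library and 201.5 in the knockdown-labelled library. LAMA3 had 18 footprints in each library, or 0.247 RPKM (interval 0.146 to 0.390) in the control and 0.259 (0.154 to 0.410) in the other. The ratio of LAMA3 to LAMB3 in RPKM was thus 0.00134 in the control library and 0.00129 in the knockdown-labelled library. The chains of laminin-411 lay much closer, with LAMA4 at 63.2 RPKM, LAMB1 at 142.4 and LAMC1 at 413.2 in the control. LAMA5, which could pair with the same β and γ chains as laminin-511, stood at 2.92 RPKM.

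Listed promoter windows of LAMA3 and LAMB3, 1 for each, are printed because LAMB3 was abundant and LAMA3, with which it assembles, was scarce. Wider gaps in RPKM were found in other trimers, as between LAMA1 at 0.389 and LAMC1 at 413.2. Both windows are RefSeq sequence (GRCh38.p14, 250 bases before to 50 after a listed start, 5′ to 3′ on the gene's strand), and capitals mark TGANTCA, the motif of the AP-1 transcription factors, which reads the same on both strands. The LAMA3 window is chr18:23872770-23873069 on the plus strand, and the LAMB3 window is chr1:209651325-209651624 on the minus strand, 1 of 3 listed for this gene. Whether these starts belong to the transcripts behind the RPKM was not tested, nor whether the LAMA3 start is the first of that gene. The length implied by counts and RPKM was 19215 nucleotides for LAMA3 and 6212 for LAMB3.
LAMA3: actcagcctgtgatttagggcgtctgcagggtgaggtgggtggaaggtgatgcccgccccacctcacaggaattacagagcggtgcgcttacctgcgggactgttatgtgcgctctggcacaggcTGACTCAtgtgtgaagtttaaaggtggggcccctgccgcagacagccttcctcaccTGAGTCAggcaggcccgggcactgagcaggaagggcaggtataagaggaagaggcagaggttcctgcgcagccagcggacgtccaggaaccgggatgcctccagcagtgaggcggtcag
LAMB3: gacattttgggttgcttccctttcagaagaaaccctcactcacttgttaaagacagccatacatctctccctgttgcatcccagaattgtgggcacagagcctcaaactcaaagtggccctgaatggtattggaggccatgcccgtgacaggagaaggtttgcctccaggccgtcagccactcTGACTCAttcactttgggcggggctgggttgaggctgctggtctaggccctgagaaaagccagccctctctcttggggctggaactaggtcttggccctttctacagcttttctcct
The LAMA3 window held 2 matches, beginning 125 and 69 bases before the start, and the LAMB3 window held 1, beginning 67 bases before it. The other LAMB3 windows held none. Of all 35116 listed windows 7.71% held the motif. Among the 24 genes of the integrin and laminin set with a window, ITGA5 was the only other one with a match. The motif was thus present in the printed windows of both the abundant and the scarce chain. A match is a run of letters and not a measured site.

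**Figure D1:**
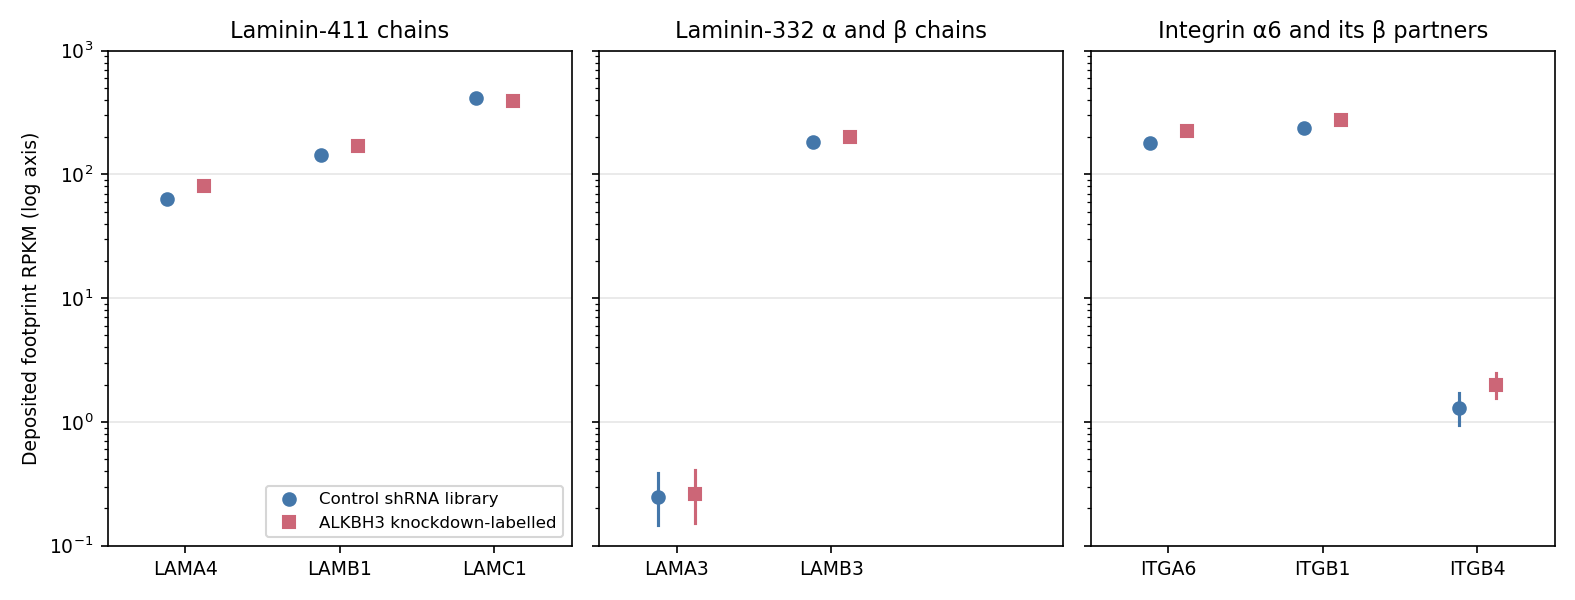
Deposited footprint RPKM (vertical log axis) of the chains of laminin-411, of LAMA3 and LAMB3 of laminin-332, and of integrin α6 with its β partners, in the control (circles) and knockdown-labelled (squares) libraries, with exact 95% Poisson intervals scaled to RPKM. In the laminin-332 panel LAMB3 stands at 184.1 and 201.5 while LAMA3 stands at 0.247 and 0.259, and ITGB4 likewise stands far below ITGA6 and ITGB1.

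The receptor chains showed a like split. ITGB1, the β chain shared by most integrins, had 3575 footprints in the control library and 3928 in the knockdown-labelled library, which was 89.8% (88.8% to 90.7%) and 88.7% (87.8% to 89.6%) of the integrin β footprints. ITGB5, a partner of ITGAV for vitronectin, had 337 and 408. ITGB4, the partner of ITGA6 in hemidesmosomes, had 49 and 72, and ITGB8 had 21 and 19. ITGB4 stood at 1.29 RPKM (0.952 to 1.70) in the control beside 179.8 for ITGA6 and 238.7 for ITGB1. Footprints of the laminin receptor chain ITGA6 were thus accompanied by many on ITGB1 and few on ITGB4 in both libraries.

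Of the α chains, ITGA3, ITGA5, ITGA6 and ITGAV led. ITGA3, a laminin receptor chain, had 4305 and 4235 footprints, ITGA5, the fibronectin receptor chain, 4299 and 4023, and ITGA6 3934 and 4701. ITGAV, which binds RGD-bearing ligands such as vitronectin, had 1532 and 1780. The collagen receptor chains had fewer footprints: ITGA11, which binds fibrillar collagen, had 248 and 416, ITGA1 had 69 and 63, and ITGA2 had 28 and 34. ITGA1 holds the gene PELO within its span on the same strand, with 185 and 208 footprints, so reads of the pair may be uncertain. The leukocyte chain ITGAE, which binds E-cadherin, had 74 and 53 footprints and ITGAX had 38 and 40, while ITGAM had 0 and 2 and ITGAD and ITGB7 had 0 in both. GSG2, which overlaps ITGAE on the opposite strand, had 126 and 131 footprints, so reads of that pair may be uncertain too. ITGA7, the muscle laminin receptor chain, had 4 and 6, ITGA10 had 0 and 2, ITGA8 had 0 and 1, and ITGA9 had 0 in both. A count of 0 allows up to 3 counts.

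In order of control RPKM, ITGA3 (448.2) was followed by LAMC1 (413.2), ITGA5 (268.1), ITGB1 (238.7), LAMB3 (184.1), ITGA6 (179.8), LAMB1 (142.4), ITGAV (69.0), LAMA4 (63.2), ITGBL1 (51.5) and ITGB5 (29.9). Of these neighbours, LAMB3 and ITGA6, and ITGAV and LAMA4, had overlapping intervals. Below ITGB5 came ITGA2 (14.9) and ITGA11 (10.1), with overlapping intervals, and all others were at or below 3.03. The place of ITGA3, ITGA2 and ITGA5 rests on the gene lengths the authors used, which the table does not state. From counts, RPKM and the column total, the length implied for ITGA2 was 493.5 nucleotides and for ITGA3 2530.3, against 5765 to 6488 for ITGA6, ITGAV, ITGA1, ITGAX, ITGAE and ITGA11. That for ITGA5 was 4225 and that for ITGA7 3669. These values carry an unknown common factor, and integrin α chains are proteins of similar size. The RPKM of ITGA2 and ITGA3, and to a lesser extent of ITGA5 and ITGA7, may thus be too high relative to the other α chains. Their counts may instead be too low, and which of these holds was not tested. The ratios of these chains between libraries are not touched.

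The first comparison asked which chains carried more or fewer footprints in the knockdown-labelled library. Ratios are log2, knockdown-labelled over control, with totals scaled by TMM (a trimmed mean over genes) and a prior count of 0.5, and a gene was measured when it had at least 100 footprints over both libraries. Of the 32 genes 17 were measured, 10 of them integrin chains and 6 laminin chains, beside ITGBL1. None was 2-fold higher or 2-fold lower, where 0.879% and 0.426% of all 7050 measured genes were. The interval lay above 0 for 7 of the 17, where it did for 18.2% of all genes, and below 0 for 4, against 22.3%, and it held 0 for 6, against 59.5%. The 17 genes are deeply counted, with a median of 3312 footprints over both libraries against 398 for all measured genes, and more counts give narrower intervals. Among the 9 with at least 1000 footprints, 5 intervals lay above and 3 below 0, against 24.1% and 42.6% of the 1614 genes at that depth.

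**Figure D2:**
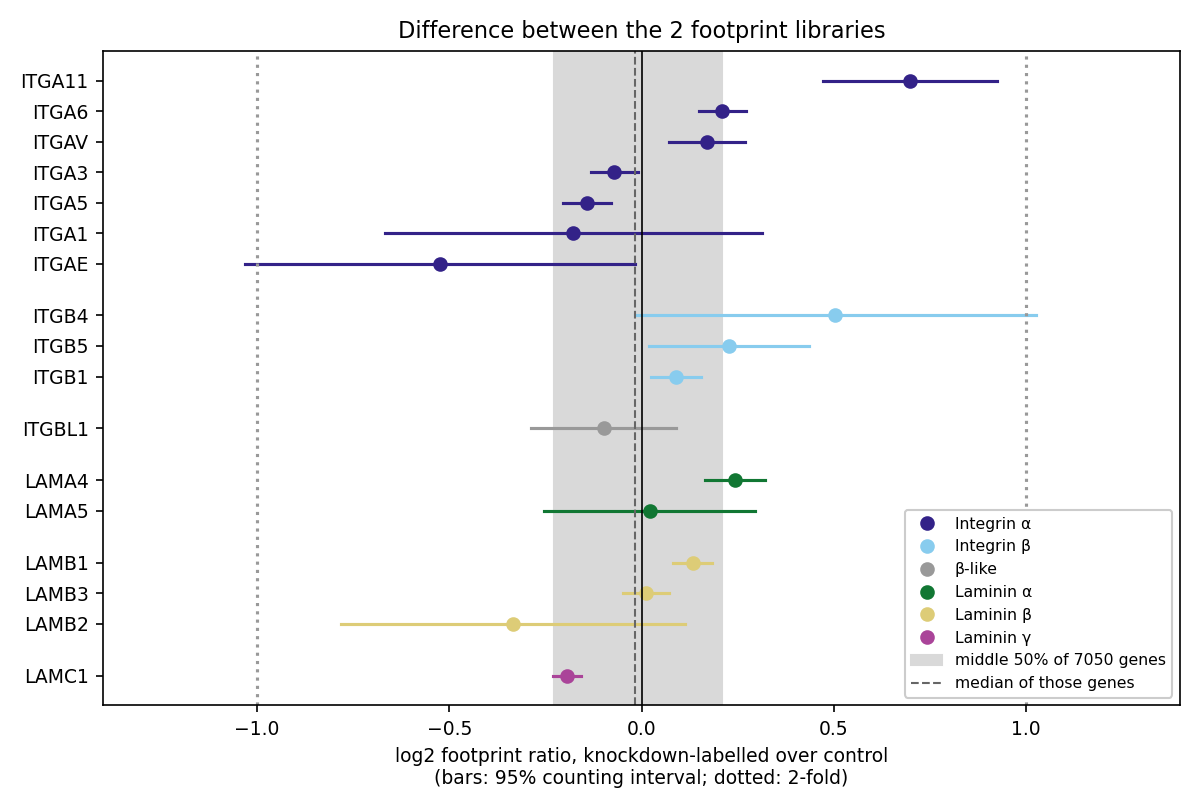
Log2 ratio of footprints, knockdown-labelled over control (horizontal axis), for the 17 genes with at least 100 footprints, grouped by chain type, with 95% counting intervals; the grey band is the middle 50% of the 7050 measured genes and dotted lines mark 2-fold. ITGA11 at 0.70 lies farthest from 0, and most others lie inside the band.

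ITGA11, at 248 and 416 footprints, was the gene farthest from 0, at a log2 ratio of 0.70 (0.47 to 0.93). It was the one gene of the set past 1.5-fold, where 4.89% of all measured genes were 1.5-fold higher and 4.62% lower. Of all measured genes, 2.99% had a higher ratio. The other collagen receptor chain with enough counts, ITGA1, was at -0.18 (-0.67 to 0.31).

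The laminin receptor chain ITGA6 was higher, at 0.21 (0.15 to 0.27), while ITGA3 was at -0.07 (-0.13 to -0.01) with TMM scaling and at 0.05 with the authors' RPKM, and its interval held 0 under each of the other 3 scalings. The fibronectin receptor chain ITGA5 was at -0.14 (-0.20 to -0.08), with an interval that held 0 in RPKM, and ITGAV was higher at 0.17 (0.07 to 0.27). The β chains ITGB1 and ITGB5 were higher, at 0.09 (0.02 to 0.15) and 0.23 (0.02 to 0.44), and ITGB4 was at 0.50 (-0.02 to 1.03), an interval that lay above 0 under each of the other 3 scalings. ITGAE was at -0.52 (-1.03 to -0.02), an interval that held 0 under each of the other 3 scalings, and ITGBL1 at -0.10 (-0.29 to 0.09). The α chains were thus divided, and the 3 measured β chains had ratios above 0 with TMM, which gave each its lowest ratio of the 4 scalings.

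Among the ligands, LAMA4 was higher at 0.24 (0.16 to 0.32) and LAMB1 at 0.13 (0.08 to 0.18), whereas LAMC1, with which both assemble, was lower at -0.19 (-0.23 to -0.16). LAMB3 was at 0.01 (-0.05 to 0.07), LAMA5 at 0.02 (-0.25 to 0.30) and LAMB2 at -0.33 (-0.78 to 0.11). LAMC1 kept an interval below 0 under TMM, plain totals, size factors and RPKM. The 7 genes above 0 with TMM (LAMA4, LAMB1, ITGA6, ITGAV, ITGA11, ITGB1 and ITGB5) stayed above 0 under the other scalings. This followed from TMM giving each measured chain its lowest ratio, so it adds no support. Of all 7050 measured genes, 1282 intervals lay above 0 with TMM and 921 below 0 with RPKM. The median of all measured genes was -0.02 with TMM and 0.10 with RPKM, a shift larger than the 0.09 of ITGB1.

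Ratios between the footprint counts of 2 chains in the same library need no scaling of totals, and they are given without scaling for length, for pairs chosen with the values known. The footprint ratio of LAMB1 to LAMC1 went from 0.461 in the control to 0.579 in the knockdown-labelled library, a log2 change of 0.33 (0.26 to 0.39). That of LAMA4 to LAMC1 went from 0.189 to 0.255, a change of 0.44 (0.35 to 0.52), and that of LAMB3 to LAMC1 changed by 0.21 (0.14 to 0.28). All laminin α footprints together, relative to all γ footprints, changed by 0.42 (0.33 to 0.50). In RPKM the ratio of LAMB1 to LAMC1 went from 0.345 to 0.432, so the γ chain, the highest of the laminin-411 chains in the control, lay closer to LAMB1 in the knockdown-labelled library. For scale, the standard deviation of the log2 ratio over all measured genes was 0.36, so shifts of this size between genes were common.

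Relative to ITGB1, ITGA5 went from 1.20 to 1.02, a log2 change of -0.23 (-0.32 to -0.14), and ITGA3 from 1.20 to 1.08, a change of -0.16 (-0.25 to -0.07). ITGA6 relative to ITGB1 went from 1.10 to 1.20, a change of 0.12 (0.03 to 0.21), and ITGA11 changed by 0.61 (0.37 to 0.85). ITGA6 therefore held 27.1% (26.4% to 27.8%) of the integrin α footprints in the control and 30.6% (29.9% to 31.3%) in the other library, and ITGA5 29.6% (28.8% to 30.3%) and 26.2% (25.5% to 26.9%). FN1, fibronectin, the ligand of ITGA5, had 20180 and 25647 footprints, a ratio of 0.30 (0.27 to 0.33), so ITGA5 relative to FN1 changed by -0.44 (-0.51 to -0.37).

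**Figure D3:**
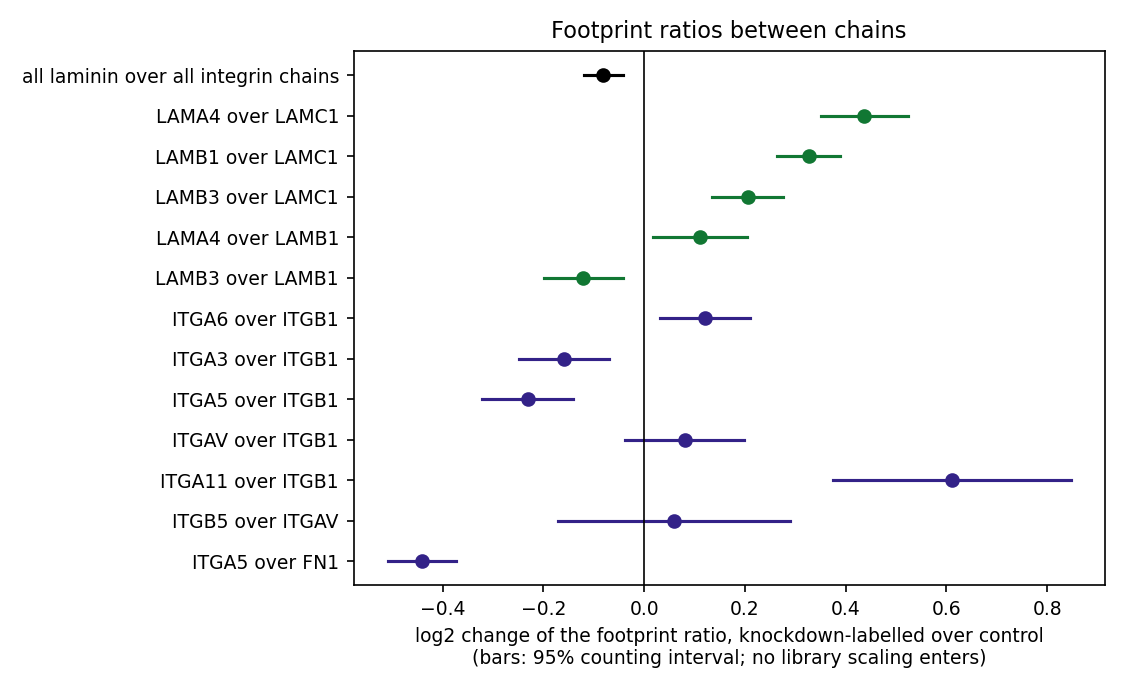
Log2 change, knockdown-labelled over control, of the footprint ratio between chains (horizontal axis), with 95% counting intervals. The ratios of LAMA4, LAMB1 and LAMB3 to LAMC1 lie above 0, and those of ITGA5 and ITGA3 to ITGB1 and of ITGA5 to FN1 lie below 0.

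Receptors were then compared with ligands. The 20 integrin chains together had 18513 footprints in the control library and 19783 in the knockdown-labelled library, a log2 ratio of 0.05 (0.02 to 0.08). The 11 laminin chains had 25289 and 25546, a ratio of -0.03 (-0.06 to -0.01) that was 0.03 (0.01 to 0.06) with plain totals. Free of that scaling, the laminin sum relative to the integrin sum changed by -0.08 (-0.12 to -0.04). LAMC1 decided this sign: without it the laminin chains went from 12814 to 14279, a ratio of 0.11 (0.08 to 0.14), and the difference from integrins was 0.06 (0.02 to 0.11). Without ITGA6 the difference was -0.03 (-0.08 to 0.01). The median ratio was 0.13 over the 10 measured integrin chains and 0.02 over the 6 laminin chains, beside -0.02 over all measured genes.

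Genes that act with these chains were described by lists. Of 39 listed genes of integrin activation and adaptor proteins, 26 were measured, with a median of -0.02, 6 intervals above 0 and 9 below. Interval counts of this and the following lists stand against 18.2% above and 22.3% below 0 over all measured genes, and 24.1% and 42.6% over those with at least 1000 footprints. ACTN1, an actin crosslinker with 7328 and 5732 footprints, was lower at -0.40 (-0.45 to -0.35). Higher ratios on fewer footprints were found for TNS1, KRIT1 and FERMT1. TNS1, a tensin that binds β chain tails, had 64 and 132, at 0.99 (0.56 to 1.42). KRIT1, which binds the integrin regulator ITGB1BP1, had 97 and 185, at 0.88 (0.53 to 1.23). FERMT1, a kindlin that activates β chains, had 57 and 102, at 0.79 (0.32 to 1.25). Of the 10 adaptor genes with at least 1000 footprints, 2 intervals lay above 0 and 5 below. ILK, the integrin-linked pseudokinase of nearly all adherent cells, was listed at 0 footprints in both libraries, as were TES and FHL2, so a low value in this table does not by itself show that a chain is not made. That limit holds for LAMA3 and ITGB4 too, and its part in their low counts was not tested.

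Of 17 basement membrane partners 12 were measured, with a median of -0.17, 3 intervals above 0 and 7 below. At least 1000 footprints were counted for 10 of the 12, and of these 2 intervals lay above 0 and 7 below. NID1, the nidogen that binds the laminin γ1 chain, had 1960 and 1586 footprints and was lower at -0.35 (-0.45 to -0.26), as were COL7A1, of anchoring fibrils, at -0.35 (-0.43 to -0.27) and AGRN, agrin, at -0.32 (-0.39 to -0.25). NTN4, a laminin-related netrin, was higher at 0.65 (0.23 to 1.07). The laminin receptors other than integrins, with the glycosylation enzymes of dystroglycan, had a median of -0.18 over 14 measured genes, 2 intervals above and 6 below 0. The syndecans SDC1, at -0.68 (-0.89 to -0.47), and SDC4, at -0.54 (-0.64 to -0.44), were lower, and SGCE, a sarcoglycan, was at 0.43 (0.13 to 0.73).

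Of other integrin ligands 14 were measured, with a median of -0.06, 5 intervals above 0 and 6 below. VCAM1, a ligand of leukocyte integrins, had 92 and 231 footprints and was 2-fold higher at 1.28 (0.93 to 1.62), whereas ICAM1 was lower at -0.75 (-0.95 to -0.56), with CTGF at -0.50 (-0.64 to -0.36) and CYR61 at -0.48 (-0.53 to -0.42). Genes of integrin trafficking and membrane partners had a median of 0.17 over 14 measured genes, 6 intervals above and 3 below 0. They included HAX1 at 0.72 (0.44 to 0.99), the thrombospondin receptor CD47 at 0.56 (0.36 to 0.76), the tetraspanin CD9 at 0.53 (0.44 to 0.62) and SLC3A2, which binds β chains and carries amino acid transporters, at 0.42 (0.34 to 0.50). Secretion and processing genes had a median of -0.10 over 10, 1 interval above and 5 below 0, with LMAN1, a cargo receptor of the endoplasmic reticulum, at -0.47 (-0.55 to -0.38) and HSPA5, its HSP70 chaperone, at -0.37 (-0.41 to -0.33). Of 4 measured hemidesmosome genes, PLEC, plectin, was at -0.21 (-0.30 to -0.12) and ERBB2IP at 0.25 (0.08 to 0.42), while CD151, the tetraspanin of laminin-binding integrins, was at 0.03 (-0.02 to 0.08).

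**Figure D4:**
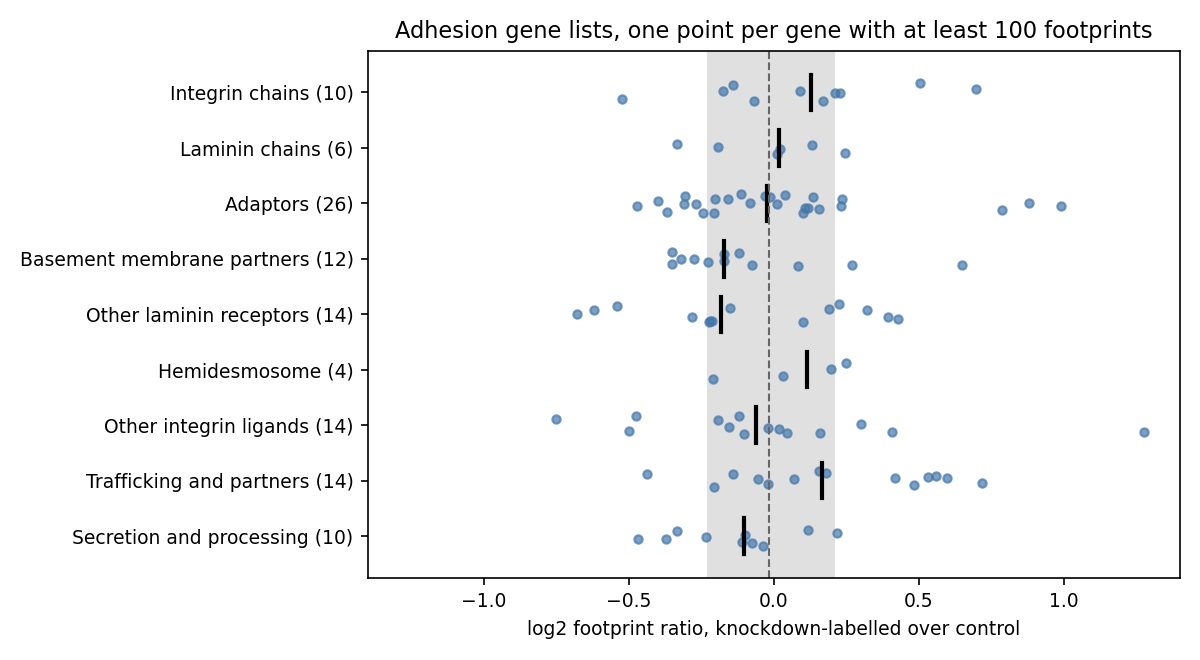
Log2 footprint ratio, knockdown-labelled over control (horizontal axis), of each gene with at least 100 footprints in 9 groups; numbers in brackets are genes, black bars medians, the grey band the middle 50% of all 7050 measured genes and the dashed line their median of -0.02. The medians run from -0.18 to 0.17, inside the band.

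RNA gave almost no counts for these chains. Over the whole table, 381 of the 7050 genes measured in footprints also had at least 100 RNA counts. Among these chains LAMA5 alone had at least 100, with 205 in the control library and 243 in the knockdown-labelled library. Its log2 ratio was -0.19 (-0.46 to 0.07). In RNA 2.9% of the 1311 measured genes were 2-fold higher and 1.3% were 2-fold lower. The footprint ratio of LAMA5 relative to its RNA ratio was 0.21 (-0.17 to 0.60), beside a median of 0.04 over the 381 genes measured in both assays. The other 31 genes together had 67 and 136 RNA counts beside 44052 and 45553 footprints. The log2 ratio of these RNA sums was 0.58 (0.16 to 1.01), on few counts, beside a median of -0.13 over the 1311 genes measured in RNA. None of the 31 genes had more than 24 RNA counts in a library, and 12 of the 32 genes had 0 in both. LAMC1, with the most footprints, had 6 and 18 RNA counts. Of 13 listed features on the opposite strand of 10 of these chains, 7 had more RNA counts than the chain in both libraries, 2 had fewer and 4 neither. The 7 lay on 5 chains, with AC078883.4, AC078883.3 and AC093818.1 all opposite ITGA6. The same count was not made over all genes, so it is not a trait of these chains. AC093818.1, inside the span of ITGA6, had 115 and 178 RNA counts where ITGA6 had 7 and 12, and RP1-142L7.5 had 80 and 167 where LAMA4 had 2 and 2. ITGAE, with 23 and 24, had more than both features opposite it, CTD-3195I5.3 (2 and 2) and GSG2 (2 and 1). For LAMC1, the authors' deposited table gives footprint RPKM over RNA RPKM as 9104.6 (control) and 3401.4 (knockdown-labelled). For LAMB3, with 1 and 6 RNA counts, the authors' deposited table gives 13552.0 and 2649.2. Other laminin chains went the other way there. For LAMA4, with 2 and 2 RNA counts, the authors' deposited table gives 5750.9 and 9203.6. For LAMB1, with 4 and 5, the authors' deposited table gives 3875.8 and 4900.0. Ratios on so few RNA counts give no measure of translation per RNA for these chains, and 18 of the 32 genes are listed at 0 there in the control.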

How the data were processed

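Counts, RPKM and a footprint-to-RNA ratio per gene came from 1 deposited table of 4 libraries of SNU-668 cells, with genes on hg19. FastQC, cutadapt, Bowtie and STAR were run, per the submitters' processing notes. How reads were assigned to genes, and how strand and multi-mapping reads were handled, was not given in the sources used here. Deposited counts are whole read counts per gene, the RPKM values were scaled by the authors for length and depth, and the deposited ratio is footprint RPKM over RNA RPKM, listed at 0 where RNA is 0.

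Totals were scaled by TMM (edgeR 4.0.16, R 4.3.3), with factors of 0.977 and 1.02 for footprints and 0.958 and 1.04 for RNA. Intervals are 95% counting intervals on counts plus 0.5, and on sums without a prior count. With 1 library per group no p-value was computed. Genes needed 100 reads over both libraries of an assay, and a 2-fold call needed an interval without 0. Some results are not reported here. All measured chains are named, and of each gene list up to 4 genes by the interval bound nearest 0, with others named for context. Members, lists, pairs and the promoter motif were chosen with earlier results of these data known. Alternatives were plain totals, DESeq2 1.42.0 size factors, RPKM with 0.1 added, a prior count of 5, filters of 20 and 1 reads, means, a 1.5-fold limit and leaving out single chains. On simulated footprints of 6812 genes, 95.0% of intervals covered the set value. These counts were drawn with Poisson counting error alone, which the interval assumes, so the check covers the calculation and not variation between libraries. In the data the standard deviation of the log2 footprint ratio was 0.36, beside a median counting error of 0.145. Protein sequences were not used here.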

Additional observations from a re-analysis of the deposited data

How the results depend on the processing

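No paired analysis was possible because each group has 1 library, and for the same reason no replicate could be left out. The number of chains 2-fold apart was 0 under every scaling, prior count and read filter tried, and 1 (ITGA11) at 1.5-fold. The median of the integrin chains ran from 0.09 to 0.25, and that of the laminin chains moved from 0.02 to 0.13 with RPKM, as all genes moved. The summed integrin ratio of 0.049 was 0.12 with plain totals and 0.0023 without ITGA6. The summed laminin ratio of -0.032 turned to 0.035 with plain totals and to 0.11 without LAMC1. Laminin minus integrin, at -0.08, turned to 0.11 without LAMC1 and ITGA6, and, in settings chosen after seeing the data, was 0.060 without LAMC1 alone and -0.034 without ITGA6 alone. ITGA3 turned to 0.049 with RPKM. The scaling of totals caused the first kind of shift by construction, and no cause was tested for the others. Of the 17 genes of the set measured in footprints, LAMA5 alone also had enough RNA counts. Of all 7050 genes measured in footprints, 381 did, and the cause was not tested.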
